A study of Homo sapiens with 20 samples.

Results

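The BCL2 family decides whether a cell opens its mitochondria and dies, and 10 of its genes are described here in K562, a human erythroleukemia cell line. The 10 genes were picked by symbol out of 57736 gene identifiers in the tables of the drug experiment and 53153 genes in those of the excision experiment. They are 3 survival genes (MCL1, BCL2, BCL2L1), 5 BH3-only genes (BCL2L11, BBC3, BMF, PMAIP1, BIK) and 2 effectors (BAX, BAK1).

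The study set out to learn what happens when super-silencers, long repressive regions of the genome, are disturbed through EZH2, the methyltransferase that writes H3K27me3, and REST, a repressor of neuronal genes. It holds stranded total RNA sequencing of 20 K562 libraries in 10 groups with n = 2 biological replicates each. The drug experiment has 12 libraries of 22925617 to 38177320 gene counts, and the excision experiment 8 libraries of 55913480 to 98507663 estimated gene counts.

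In the drug experiment, control cells received DMSO for 72 h, and 2 groups received 5 uM of the EZH2 inhibitor GSK343 or 100 uM of the REST inhibitor X5050 for 72 h. The other 3 groups, named GR, received both compounds at those doses for 8, 24 or 72 h. The DMSO control exists at 72 h alone, so in the 8 h and 24 h comparisons the drugs and the length of the culture cannot be told apart. In the excision experiment the control cells (EV) carried an empty vector, and CRISPR removed the first silencer region (S1KO), the second (S2KO) or the pair (DKO). Whether these lines are single clones or pools is not given in the sources used here. The removed regions are noncoding, so the gene counts do not check the excision itself.

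Survival proteins such as MCL1, BCL2 and BCL2L1 (BCL-XL) hold the effectors BAX and BAK1 in check. BH3-only proteins carry stress signals: they block the survival proteins or activate the effectors, which then form pores in the outer mitochondrial membrane and let cytochrome c out. K562 carries the BCR-ABL1 kinase, whose STAT5 signal is known to feed BCL2L1, and BCL2L11 (BIM) and BMF are known to be held down by growth factor signalling.

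K562 identity was checked with 10 erythroid genes such as the globin HBG1, the receptor TFRC and the factor GATA1. From 9 to 10 of them reached 1 CPM (a count scaled to library size) in every library. Their summed level ran from 1639 to 6001 CPM in the drug libraries and from 2704 to 19759 CPM in the excision libraries. Lymphoid markers reached 1 CPM for at most 2 of 5 genes, and their sum stayed at or below 18.8 CPM. Of the myeloid markers at most 3 of 5 reached 1 CPM, led by LYZ, and of the epithelial and fibroblast markers at most 4 of 6, led by EPCAM except in DKO, where COL1A2 led. The latter list summed to at most 68.6 CPM in the drug libraries and 222 CPM in the excision libraries. In bulk RNA, fewer cells of a kind and less RNA per cell cannot be told apart.

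The 250 bases upstream of the start of BMF, BCL2L11 and BBC3 are shown because these 3 BH3-only genes, BIK with its few counts aside, rose most from 24 h to 72 h of both drugs, BMF and BCL2L11 after a fall. For BBC3 that rise held only without a correction for GC content, which turned it to -0.39. The set of RefSeq promoters used here, on GRCh38.p14, holds 8 of the 10 genes and lacks MCL1 and BIK. All are written on the gene's own strand, 5′ to 3′, for BMF at chr15:40108880-40109129 (minus strand, the outer of its listed starts), BCL2L11 at chr2:111120664-111120913 (plus strand) and BBC3 at chr19:47232668-47232917 (minus strand). Capitals mark a match to one of 10 motifs searched on both strands.
BMF: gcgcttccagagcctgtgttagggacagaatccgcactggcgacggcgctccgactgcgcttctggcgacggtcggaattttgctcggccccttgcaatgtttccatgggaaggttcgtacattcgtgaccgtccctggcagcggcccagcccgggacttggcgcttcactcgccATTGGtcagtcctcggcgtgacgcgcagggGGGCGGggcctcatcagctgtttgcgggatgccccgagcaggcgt
BCL2L11: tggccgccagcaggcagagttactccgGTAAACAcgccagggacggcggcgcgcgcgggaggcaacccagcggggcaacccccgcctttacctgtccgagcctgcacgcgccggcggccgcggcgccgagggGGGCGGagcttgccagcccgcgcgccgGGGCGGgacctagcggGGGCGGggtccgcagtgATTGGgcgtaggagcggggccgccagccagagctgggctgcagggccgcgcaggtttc
BBC3: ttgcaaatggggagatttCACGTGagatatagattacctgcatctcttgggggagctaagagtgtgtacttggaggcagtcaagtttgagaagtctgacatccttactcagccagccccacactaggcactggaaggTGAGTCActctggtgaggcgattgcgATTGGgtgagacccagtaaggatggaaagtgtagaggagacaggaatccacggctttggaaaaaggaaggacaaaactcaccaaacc
The GC box GGGCGG, bound by SP1 and KLF factors, was upstream of 5 of the 8 genes (BAK1, BAX, BCL2L11, BMF, PMAIP1) and in 42.6% of 35116 RefSeq promoter windows of this length. A gene was counted when any of its listed starts had the match, so gene counts and window shares differ in basis. The box CCAAT of NF-Y was in 5 (BAK1, BAX, BBC3, BCL2L11, BMF) against 32.0% of all windows. BCL2L11 alone had TGTTTAC, a letter string bound by FOXO factors (2.98% of windows), as GTAAACA at 223 bases upstream. BBC3 had the AP-1 string TGANTCA (6.57%), and BBC3 and BAX had CACGTG, the E-box of MYC and USF (6.34%). The strings TGACGTCA (CREB and ATF, 1.65%), TGATGNAA (CHOP with ATF4, 3.14%), AGATAA (bound by GATA factors, 9.17%), TTCNNNGAA (STAT, 6.57%) and TTCAGCACC (the left part of the REST site, 0.288%) were upstream of 0 of the 8 genes. A match is a run of letters and no measured binding.

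MCL1 rose under every drug treatment and at 24 h stood at 10.0-fold its DMSO level, BMF fell at 24 h and stood at 5.38-fold at 72 h, and after 72 h of both drugs MCL1 and 6 of the 7 death genes were higher while BCL2L1 was lower. Values after ± are standard errors for log2 fold changes and standard deviations for levels. A gene is called when its adjusted p from edgeR's quasi-likelihood test, fitted over all 19224 tested genes, is under 0.05. All 10 genes were tested in the drug libraries. GSK343 raised 4 of the 10 (9.12% of all genes rose, 3.31% fell), and X5050 raised 2 (5.34% rose, 7.23% fell), or 1 without X5050 replicate 1 and 3 without X5050 replicate 2. Both drugs raised 3 and lowered 1 at 8 h (all genes 21.8% and 21.2%), raised 6 and lowered 3 at 24 h (22.0% and 21.1%), and raised 7 and lowered 1 at 72 h (19.2% and 17.3%). The median log2 fold change of the 10 genes was 0.23 with GSK343 and 0.15 with X5050, and 0.05, 0.37 and 0.88 at 8, 24 and 72 h of both drugs. The median over all genes was between -0.03 and 0.01 in these 5 comparisons. At 8 h the share that rose or fell was near that of all genes, and at 24 h and 72 h it was larger. The 10 genes were chosen with earlier results of these data known, so their shares are descriptions and no test of the family. These comparisons share the 2 DMSO libraries.

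**Figure D1:**
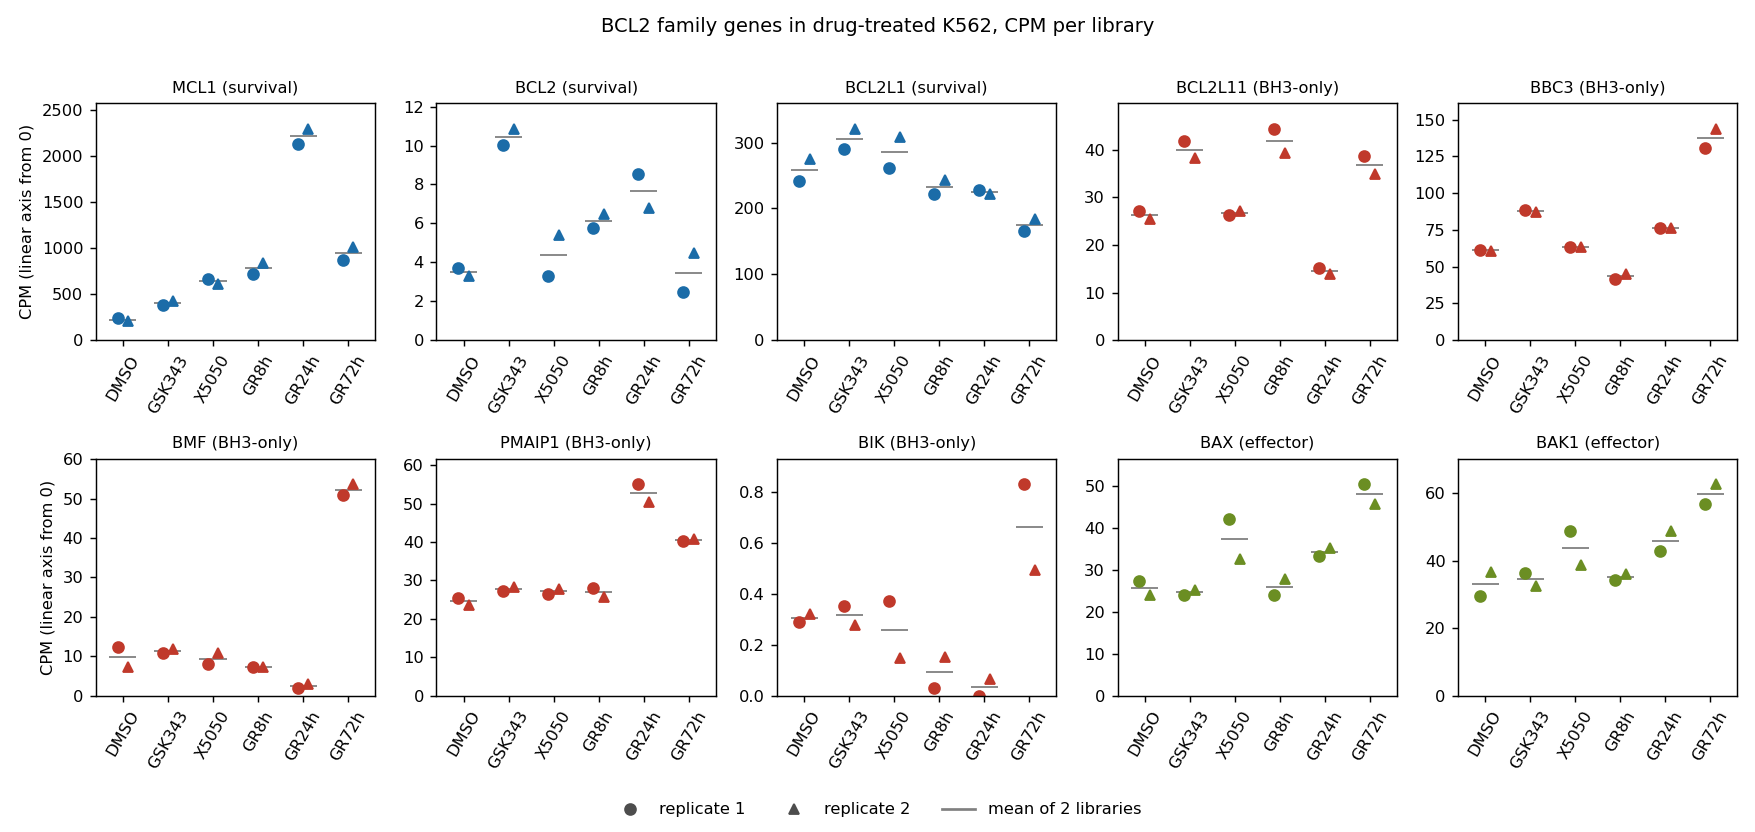
Level of each of the 10 genes in CPM (linear axes from 0) in every drug library, with circles and triangles for replicates 1 and 2 and a line at the mean of both. MCL1 peaks at 24 h of both drugs (2139 and 2301 CPM), while BMF is lowest there and highest at 72 h (50.8 and 53.6 CPM).

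Among the survival genes, MCL1, a short-lived protein that guards BAK1, had 238 and 205 CPM in the DMSO libraries. It had 380 and 424 CPM with GSK343 and 671 and 614 CPM with X5050. With both drugs it had 724 and 840 CPM at 8 h, 2139 and 2301 CPM at 24 h, and 877 and 1016 CPM at 72 h. The order was thus DMSO, GSK343, X5050, 8 h, 72 h and 24 h, and no group overlapped its neighbour. The log2 fold change against DMSO was 0.86 ± 0.12 with GSK343 (adjusted p = 0.000287, edgeR) and 1.54 ± 0.12 with X5050 (edgeR adjusted p = 3.02e-06). With both drugs it was 1.82 ± 0.13 at 8 h (edgeR adjusted p = 1.68e-07), 3.33 ± 0.13 at 24 h (9.17e-11) and 2.10 ± 0.13 at 72 h (7.21e-09). These 5 calls held with any 1 library left out and under the other settings tried.

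Between 8 h and 24 h MCL1 rose by a further 1.51 ± 0.12 (edgeR adjusted p = 3.05e-07), and by 72 h it had fallen by 1.23 ± 0.12 from the 24 h level (1.58e-06). After 72 h the combination stood above GSK343 alone by 1.24 ± 0.12 (edgeR adjusted p = 1.87e-06) and above X5050 alone by 0.56 ± 0.12 (0.00259). The latter difference was 0.41 with an adjusted p of 0.0691 in edgeR without X5050 replicate 2. The change under both drugs differed from the sum of the 2 single changes by -0.30, with a 95% interval of -0.64 to 0.04 (edgeR adjusted p = 0.247), so on the log scale a departure from addition was not called.

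BCL2, the founding survival gene, is low in these cells. It had 3.72 and 3.28 CPM with DMSO, 10.0 and 10.9 CPM with GSK343, and 3.32 and 5.41 CPM with X5050. Both drugs gave 5.74 and 6.51 CPM at 8 h, 8.55 and 6.82 CPM at 24 h, and 2.45 and 4.50 CPM at 72 h. GSK343 alone gave the highest libraries of all, and the 72 h combination overlapped DMSO. BCL2 rose by 1.58 ± 0.28 with GSK343 (edgeR adjusted p = 0.0017) and by 1.13 ± 0.28 at 24 h (0.00397). The rise of 0.81 ± 0.28 at 8 h (edgeR adjusted p = 0.0292) was lost without either 8 h library or either DMSO library (adjusted p 0.0519 to 0.125) and with the GC trend removed (0.0553). At 72 h the combination lay below GSK343 alone by -1.58 ± 0.28 (edgeR adjusted p = 0.000364) and below the sum of the single drugs by -1.89 ± 0.40 (0.00417). The fall from 24 h to 72 h was -1.13 ± 0.28 (edgeR adjusted p = 0.00366), or -0.77 with an adjusted p of 0.0666 without 72 h replicate 1.

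BCL2L1, which encodes BCL-XL and supports red cell precursors, had 241 and 275 CPM with DMSO, 290 and 321 CPM with GSK343 and 262 and 309 CPM with X5050. The combination gave 223 and 242 CPM at 8 h, 229 and 222 CPM at 24 h, and 166 and 185 CPM at 72 h. The 72 h libraries were the lowest of the 12, below all others. BCL2L1 fell by 0.56 ± 0.12 at 72 h (edgeR adjusted p = 0.00159), and GSK343 alone gave 0.24 with an interval of 0.01 to 0.47 (0.202). The combination at 72 h lay 0.95 ± 0.17 below the sum of the single drugs, a log2 difference of -0.95 (edgeR adjusted p = 0.0012), and this call held with any 1 library left out. The difference between 24 h and 72 h, -0.36 ± 0.12 (edgeR adjusted p = 0.0199), was lost without either 24 h library or without 72 h replicate 1 (0.0699 to 0.164), and it was -0.80 with the GC trend removed (0.000158).

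BCL2L1 ranged 1.93-fold over the 12 libraries and MCL1 11.2-fold, so the ratio of the 2 survival RNAs followed MCL1. MCL1 counts per BCL2L1 count were 0.986 and 0.746 with DMSO, 1.31 and 1.32 with GSK343, and 2.56 and 1.99 with X5050. With both drugs the ratio was 3.25 and 3.46 at 8 h, 9.36 and 10.4 at 24 h, and 5.28 and 5.51 at 72 h. The groups did not overlap at any step. The ratio is not corrected for transcript length, so only its change between libraries can be read, and with 2 libraries a group an exact permutation test cannot give a p under 0.333.

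**Figure D2:**
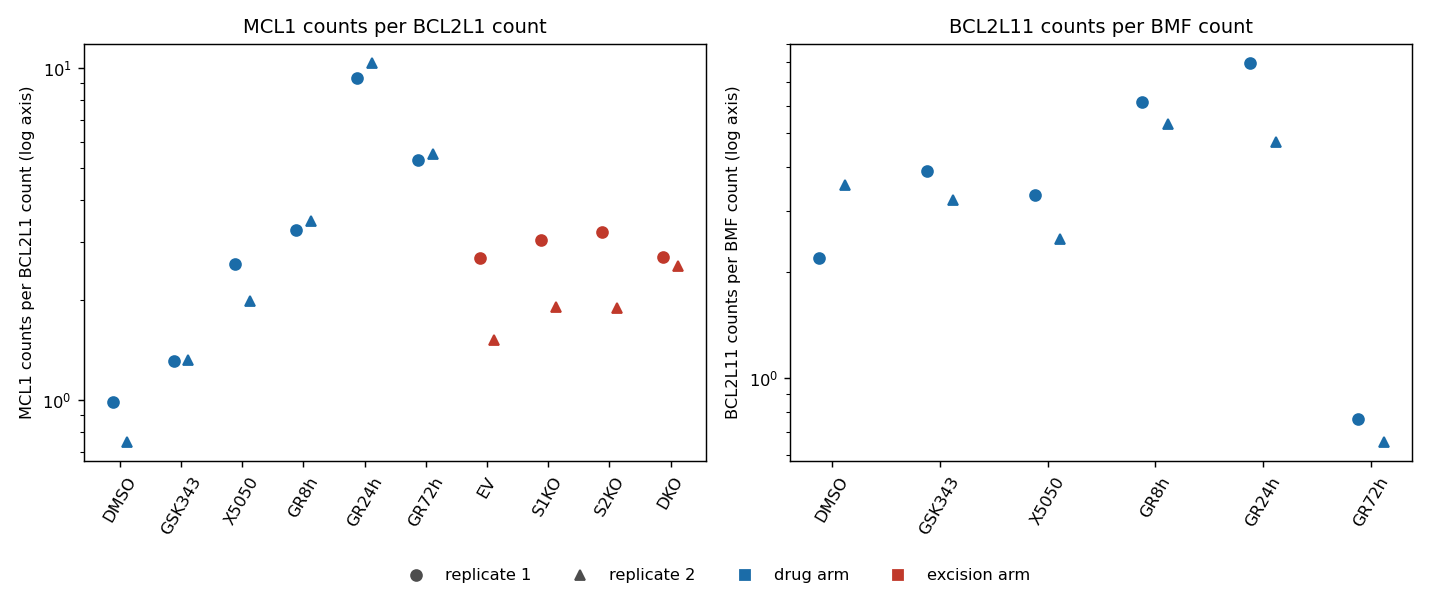
Left, MCL1 counts per BCL2L1 count in every library (log axis, drug libraries blue, excision libraries red), which is 0.746 to 0.986 with DMSO and 9.36 to 10.4 at 24 h of both drugs. Right, BCL2L11 counts per BMF count in the drug libraries (log axis), which is below 1 only in the 72 h combination (0.762 and 0.653), with circles and triangles for replicates 1 and 2.

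The BH3-only genes did not move as a block. BCL2L11 encodes BIM, which can activate BAX and BAK1 directly. It had 27.1 and 25.4 CPM with DMSO, 41.8 and 38.2 CPM with GSK343, and 26.3 and 27.1 CPM with X5050. In the combination it had 44.4 and 39.3 CPM at 8 h, 15.3 and 14.0 CPM at 24 h, and 38.7 and 35.0 CPM at 72 h. The 24 h libraries were the lowest of the 12, and the GSK343, 8 h and 72 h libraries lay above all the DMSO, X5050 and 24 h libraries. BCL2L11 rose by 0.67 ± 0.12 at 8 h (edgeR adjusted p = 0.00038), fell by 0.84 ± 0.13 at 24 h (6.35e-05) and rose by 0.49 ± 0.12 at 72 h (0.00528). With GSK343 alone it rose by 0.61 ± 0.12 (edgeR adjusted p = 0.00422), and with X5050 the estimate was 0.03 with an interval of -0.22 to 0.27 (0.926). The 72 h call was lost without 72 h replicate 1 (0.42, edgeR adjusted p = 0.0602) and the GSK343 call without GSK343 replicate 1 (0.53, 0.0518). The swings between time points were larger: -1.51 ± 0.13 from 8 h to 24 h (edgeR adjusted p = 3.13e-07) and 1.33 ± 0.13 from 24 h to 72 h (9.76e-07), and both held with any 1 library left out.

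BMF, a BH3-only protein tied to the cytoskeleton that is released when cells detach or are starved, had the widest range of the 9 genes with counts in every drug library, 27.9-fold from the lowest to the highest. It had 12.3 and 7.16 CPM with DMSO, 10.7 and 11.9 CPM with GSK343, and 7.90 and 10.9 CPM with X5050. Under both drugs it had 7.23 and 7.37 CPM at 8 h, 1.92 and 2.97 CPM at 24 h, and 50.8 and 53.6 CPM at 72 h. The single drugs overlapped DMSO, the 24 h libraries lay below and the 72 h libraries far above all others. BMF fell by 1.99 ± 0.26 at 24 h (edgeR adjusted p = 2.16e-05) and rose by 2.43 ± 0.23 at 72 h (1.45e-06), a change of 4.42 ± 0.26 or 21.4-fold between these times (3.24e-08).

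At 72 h BMF in the combination stood above GSK343 alone by 2.21 ± 0.23 (edgeR adjusted p = 3.44e-06), above X5050 alone by 2.48 ± 0.23 (2.41e-06) and above the sum of the single drugs by 2.26 ± 0.33 (0.000329). These calls held with any 1 library left out. The 2 DMSO libraries were unlike each other for BMF, and the small changes turned on them. With GSK343 the estimate of 0.22 (edgeR adjusted p = 0.604) became 0.66 (0.0491) without DMSO replicate 1 and -0.12 (0.832) without DMSO replicate 2. At 8 h the estimate of -0.41 (edgeR adjusted p = 0.176) became 0.026 (0.949) and -0.75 (0.00966) in the same order. BCL2L11 counts per BMF count were 2.21 and 3.55 with DMSO and between 2.49 and 7.95 in the other groups, apart from the 72 h combination with 0.762 and 0.653.

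BBC3 encodes PUMA, a target of p53 and FOXO3. It had 61.5 and 60.7 CPM with DMSO, 88.8 and 87.4 CPM with GSK343, and 63.5 and 63.3 CPM with X5050. With both drugs it had 41.8 and 45.0 CPM at 8 h, 76.1 and 76.0 CPM at 24 h, and 131 and 144 CPM at 72 h. The 8 h libraries were the lowest and the 72 h libraries the highest. BBC3 rose by 0.53 ± 0.10 with GSK343 (edgeR adjusted p = 0.00318) and by 1.17 ± 0.10 at 72 h (4.37e-07). The GSK343 rise was 0.50 with an adjusted p of 0.054 (edgeR) without GSK343 replicate 2. With X5050 the estimate was 0.05 with an interval of -0.15 to 0.26 (edgeR adjusted p = 0.792).

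BBC3 has the highest GC content of the 10 genes, 69.7% in its longest transcript, against 37.2% in PMAIP1, the lowest. Its 8 h and 24 h values moved with a correction for GC content. At 8 h the fall of 0.49 ± 0.10 (edgeR adjusted p = 0.00114) became a rise of 0.37 (0.0148) with the GC trend removed, and at 24 h the rise of 0.32 ± 0.10 (0.0199) became 1.18 (7.5e-07). The uncorrected 24 h call was lost without either 24 h library (0.109 and 0.111, edgeR). The 72 h rise became 0.79 and stayed called (edgeR adjusted p = 3.68e-05), while the change from 24 h to 72 h turned from 0.85 ± 0.10 (7.45e-06) to -0.39 (0.0112). The excess over the sum of the single drugs, 0.58 ± 0.14 (edgeR adjusted p = 0.0103), was 0.31 (0.171) with the trend removed, and it was lost without 72 h replicate 2 or either GSK343 library (0.0551 to 0.0621).

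PMAIP1 encodes NOXA, which binds MCL1 and sends it for degradation. It had 25.4 and 23.6 CPM with DMSO, 27.2 and 28.2 CPM with GSK343, and 26.6 and 27.7 CPM with X5050. With both drugs it had 28.1 and 25.6 CPM at 8 h, 55.0 and 50.5 CPM at 24 h, and 40.3 and 40.6 CPM at 72 h. The highest libraries were those at 24 h, as for MCL1. PMAIP1 rose by 1.11 ± 0.12 at 24 h (edgeR adjusted p = 2.02e-06) and by 0.72 ± 0.12 at 72 h (0.000158), and both calls held with any 1 library left out and with the GC trend removed. The single drugs gave 0.18 (edgeR adjusted p = 0.373) and 0.15 (0.467), and 8 h gave 0.13 (0.383). The step from 24 h to 72 h, -0.38 ± 0.11 (edgeR adjusted p = 0.0119), was lost without 24 h replicate 1 (-0.33, 0.125) or 72 h replicate 1 (-0.37, 0.0665), and it was 0.11 (0.517) with the GC trend removed.

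BIK, a BH3-only gene of the endoplasmic reticulum, was close to silent. It had 7 and 8 counts with DMSO, 10 and 9 with GSK343, and 11 and 4 with X5050. Both drugs gave 1 and 6 counts at 8 h, 0 and 2 at 24 h, and 19 and 13 at 72 h. The 24 h libraries were among the lowest and the 72 h libraries were the highest. Scaled to library size, 24 h stood at 0.107 of DMSO with a 95% counting interval of 0.0119 to 0.461 (edgeR adjusted p = 0.027), a call lost without 24 h replicate 1 or either DMSO library (0.0608 to 0.191) and in DESeq2 (adjusted p = 0.0577). The ratio of 72 h to 24 h was 20.0 with an interval of 5.09 to 172 (edgeR adjusted p = 0.00202). Such intervals cover counting error only.

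The 2 effectors rose at 72 h. BAX, which moves from the cytosol to the mitochondria when activated, had 27.3 and 23.9 CPM with DMSO, 24.1 and 25.3 CPM with GSK343, and 42.2 and 32.5 CPM with X5050. The combination gave 23.9 and 27.9 CPM at 8 h, 33.3 and 35.3 CPM at 24 h, and 50.4 and 45.8 CPM at 72 h. BAX with GSK343 and at 8 h overlapped DMSO, and the 72 h libraries were the highest. It rose by 0.91 ± 0.14 at 72 h (edgeR adjusted p = 0.000124) and stood 0.96 ± 0.14 above GSK343 alone (7.3e-05). The difference from X5050 alone was 0.36 with an interval of 0.09 to 0.64 (edgeR adjusted p = 0.0605), and it passed without either DMSO library or without X5050 replicate 1 (0.0343 to 0.0426). With the GC trend removed it was 0.15 (edgeR adjusted p = 0.442). The X5050 rise of 0.55 ± 0.14 (edgeR adjusted p = 0.0199) was lost without DMSO replicate 2 (0.46, 0.0837) or X5050 replicate 1 (0.37, 0.218). The 24 h rise of 0.42 ± 0.14 (edgeR adjusted p = 0.0243) was lost without DMSO replicate 2 (0.119) or either 24 h library (0.072 and 0.138).

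BAK1, the effector that sits in the mitochondrial membrane and is held by MCL1, had 29.6 and 36.6 CPM with DMSO, 36.4 and 32.5 CPM with GSK343, and 48.8 and 38.7 CPM with X5050. In the combination it had 34.4 and 35.9 CPM at 8 h, 42.8 and 48.7 CPM at 24 h, and 56.8 and 62.6 CPM at 72 h. As for BAX, GSK343 and 8 h overlapped DMSO and 72 h was highest. BAK1 rose by 0.85 ± 0.14 at 72 h (edgeR adjusted p = 0.000209), 0.79 ± 0.14 above GSK343 alone (0.000353). With X5050 alone the estimate was 0.40 (edgeR adjusted p = 0.0756), and it passed in DESeq2 (0.44, adjusted p = 0.0412) and without DMSO or X5050 replicate 2 (0.0276 and 0.0165). The 24 h rise of 0.47 ± 0.14 (edgeR adjusted p = 0.0136) was lost without 24 h replicate 2 (0.37, 0.139) or DMSO replicate 1 (0.32, 0.12). At 8 h the estimates of 0.020 for BAX and 0.086 for BAK1 became 0.38 and 0.44 with the GC trend removed (edgeR adjusted p = 0.0393 and 0.0263), and at 24 h those of 0.42 and 0.47 became 0.77 and 0.81 (0.000369 and 0.000435). BAX counts per BAK1 count stayed between 0.652 and 0.921 in all 12 libraries.

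**Figure D3:**
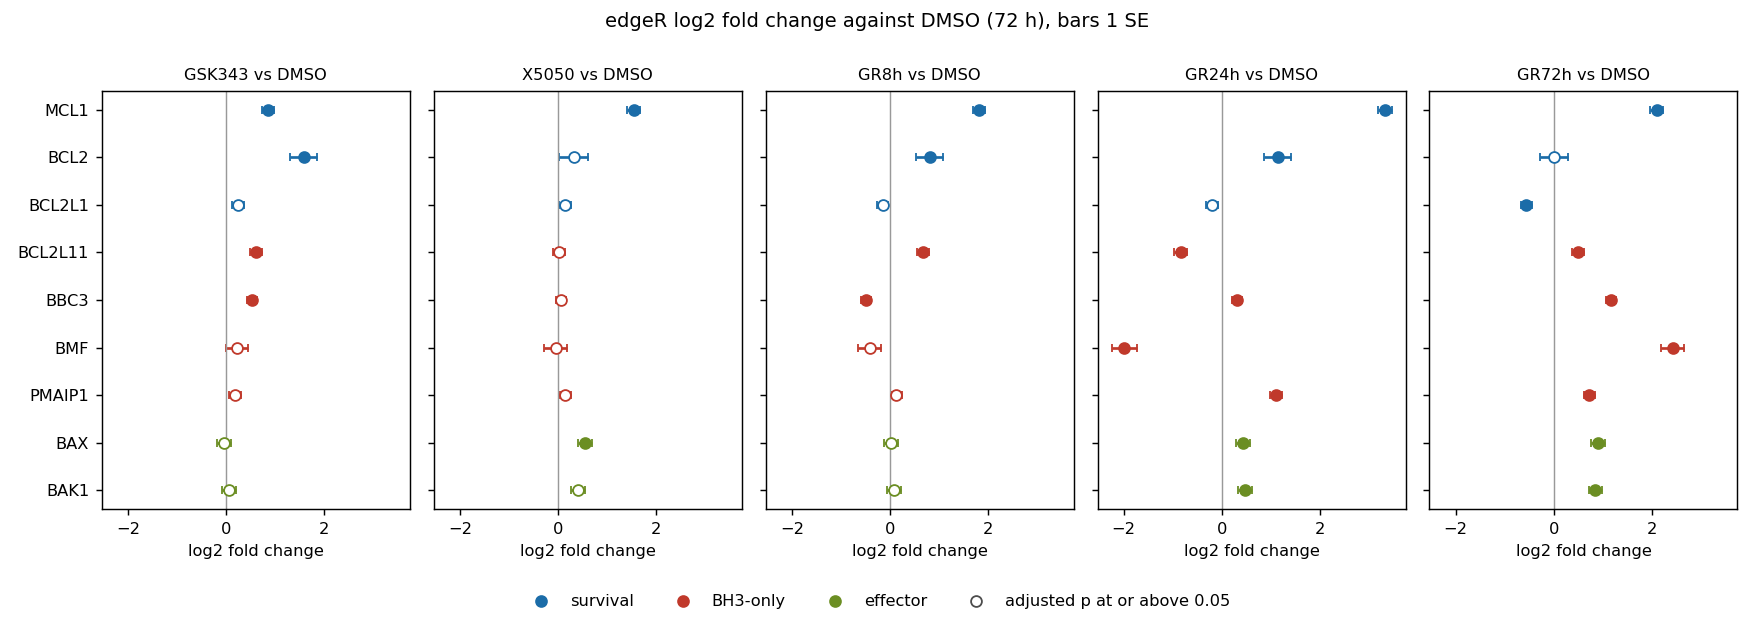
edgeR log2 fold change against DMSO for 9 of the genes (BIK is left out for its low counts) in the 5 drug comparisons, with bars of 1 standard error and filled points for adjusted p under 0.05. The MCL1 estimate is above 0 in every panel (0.86 to 3.33), while BMF goes from -1.99 at 24 h to 2.43 at 72 h.

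Within the time course, 5 of the 10 genes rose and 2 fell from 8 h to 24 h (18.4% and 17.4% of all genes), and 6 rose and 4 fell from 24 h to 72 h (24.1% and 21.8%). In the first step MCL1, BBC3, PMAIP1, BAX and BAK1 rose, while BCL2L11 and BMF fell. Of these, BBC3 rose by 0.81 ± 0.10 (edgeR adjusted p = 2.06e-05), PMAIP1 rose by 0.97 ± 0.11 (1.03e-05) and BMF fell by 1.58 ± 0.26 (0.000236). The BAX rise of 0.40 ± 0.14 (edgeR adjusted p = 0.0344) and the BAK1 rise of 0.38 ± 0.14 (0.0435) were lost without either 24 h library, without 8 h replicate 1 and without either GSK343 library (0.0512 to 0.29), and that of BAK1 also without 8 h replicate 2 or either 72 h library (0.0536 to 0.111). In the second step MCL1, BCL2, BCL2L1 and PMAIP1 fell and the other 6 rose. In it the BAX rise of 0.49 ± 0.14 (edgeR adjusted p = 0.00963) was lost without 24 h or 72 h replicate 1 (0.0902 and 0.0824). The BAK1 rise of 0.38 ± 0.14 (edgeR adjusted p = 0.0335) was lost without any 1 of the 8 h, 24 h, 72 h and GSK343 libraries (0.057 to 0.256). With the GC trend removed these 2 estimates were -0.069 and -0.17, and those of BBC3 and PMAIP1 also changed sign (-0.39 and 0.11). Without 72 h replicate 1 the second step called 5 of the 10 genes, and without 24 h replicate 1 it called 6.

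Set against a single drug at 72 h, the combination raised 6 and lowered 2 of the 10 genes over GSK343 (18.9% and 20.5% of all genes), and raised 6 and lowered 1 over X5050 (17.5% and 12.8%). Without X5050 replicate 2 the latter comparison called 4 genes in all. The BCL2L1 level was lower than with either drug, by -0.80 ± 0.12 and -0.70 ± 0.12 (edgeR adjusted p = 7.47e-05 and 0.000341). BBC3 stood above both by 0.64 ± 0.10 and 1.11 ± 0.10 (edgeR adjusted p = 0.000138 and 1.41e-06), or by 0.36 and 0.74 with the GC trend removed (0.014 and 0.000107). PMAIP1 stood above both by 0.55 ± 0.12 and 0.58 ± 0.12 (0.00142 and 0.00133). BCL2L11 differed from X5050 by 0.46 ± 0.12 (edgeR adjusted p = 0.00905), a call lost without 72 h replicate 1 or either X5050 library (0.0682 to 0.0925), and from GSK343 by -0.12, with an interval of -0.36 to 0.12 (0.473). The BAK1 difference from X5050, 0.45 ± 0.14 (edgeR adjusted p = 0.0227), was lost without either 8 h, 72 h or GSK343 library or X5050 replicate 2 (0.0514 to 0.383). It was also lost with the GC trend removed (0.23, edgeR adjusted p = 0.24), without a filter (0.0534), with only the groups compared (0.0599) and in DESeq2 (0.0526). The test of a departure from the sum of the single drugs called 2 genes above it, BMF and BBC3 (9.75% of all genes), and 2 below it, BCL2 and BCL2L1 (9.04%).

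The summed erythroid marker RNA moved with the treatments as well. This sum was 2262 and 2427 CPM with DMSO, 2216 and 1639 CPM with GSK343, 5931 and 2948 CPM with X5050, and 4681 to 6001 CPM in the 6 libraries of both drugs. A single marker can carry much of it: at 24 h the highest gave 2700 and 2721 CPM of sums of 5596 and 5592 CPM. The sum thus does not show how each marker moved. GATA1, the erythroid master factor and a known activator of BCL2L1, fell by 0.93 ± 0.12 at 24 h (edgeR adjusted p = 1.22e-05) and by 0.56 ± 0.12 at 72 h (0.00143). Among the 5 myeloid markers CD14 and CSF1R rose at 72 h of both drugs, from means of 0.244 and 0.0613 CPM to 1.35 and 0.59 CPM, and LYZ fell from 17.6 to 10.7 CPM (edgeR adjusted p = 0.00299, 0.0103 and 0.00457). From 24 h to 72 h CD14, CSF1R and ITGAM rose while LYZ and MPO fell. The summed myeloid level at 72 h was 15.9 and 15.4 CPM, against 17.5 and 22.2 CPM with DMSO. The part of these shifts in the changes of the 10 genes was not tested.

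Other genes of the pathway, listed by role, moved in both directions. After 72 h of both drugs 5 of 15 tested further BCL2 family genes rose and 2 fell (19.2% and 17.3% of all genes), with a median log2 fold change of 0.26 against 0.01 for all genes. HRK, a BH3-only gene known from neurons, rose by 3.0 ± 0.54 from a mean of 0.429 to 3.44 CPM (edgeR adjusted p = 0.000421). BOK, an effector relative, rose by 1.39 ± 0.31 (edgeR adjusted p = 0.00256), and BCLAF1, a nuclear factor named for binding BCL2, rose by 0.87 ± 0.12 (3.04e-05). BCL2L2, the survival gene for BCL-W, fell by 0.61 ± 0.11 (edgeR adjusted p = 0.00043). Among inhibitors of apoptosis 2 of 7 rose and 1 fell, shares near those of all genes (19.2% and 17.3%; median -0.03). The changes were those of XIAP, which blocks caspases, by 1.20 ± 0.13 (edgeR adjusted p = 2.9e-06), BIRC3 by 2.29 ± 0.26 (6.29e-06), and BIRC5, the survivin gene of dividing cells, by -0.64 ± 0.11 (0.000277).

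Downstream of the mitochondria, 2 of 18 genes for the apoptosome, caspases and released proteins rose and 5 fell at 72 h (19.2% and 17.3% of all genes; median -0.12). ENDOG, a mitochondrial nuclease, fell by 1.02 ± 0.13 (edgeR adjusted p = 1.42e-05), AIFM1 by -0.86 ± 0.13 (0.000115) and VDAC3, a channel of the outer membrane, by -0.49 ± 0.11 (0.00214). CASP8, the initiator of the death receptor route, rose by 0.65 ± 0.14 (edgeR adjusted p = 0.00152). At 24 h 7 of the 18 rose and 3 fell (22.0% and 21.1% of all genes; median 0.19), with CASP8 up by 1.01 ± 0.14 (edgeR adjusted p = 2.36e-05).

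Of 17 transcription factors known to act on the family, 7 rose and 4 fell at 72 h (19.2% and 17.3% of all genes; median 0.28), and 6 rose and 6 fell at 24 h (22.0% and 21.1%; median 0.15). NFKB1 rose in each group that received X5050: by 1.08 ± 0.14 with X5050 alone (edgeR adjusted p = 0.000175), and by 1.54 ± 0.14, 1.80 ± 0.14 and 1.95 ± 0.14 at 8, 24 and 72 h of both drugs (7.61e-07, 8.69e-08 and 5.01e-08). FOXO3, a known activator of BCL2L11 and BBC3, rose by 0.95 ± 0.12 at 72 h (edgeR adjusted p = 1.08e-05), and RELA by 0.87 ± 0.11 (2.01e-05). STAT5B, which relays BCR-ABL1 signals, fell by 0.89 ± 0.11 (edgeR adjusted p = 1.99e-05). Of 6 tested genes that control MCL1 protein turnover, 2 rose at 24 h, where 22.0% of all genes rose. At 72 h 1 rose (USP9X) and 1 fell (BTRC), against 19.2% and 17.3% of all genes. With GSK343 alone 1 fell (HUWE1), against 3.31% of all genes. USP9X, which spares MCL1 from degradation, rose by 0.61 ± 0.12 at 8 h (edgeR adjusted p = 0.000622) and by 1.07 ± 0.12 at 24 h (3.65e-06). At 72 h it rose by 0.45 ± 0.12 (0.00692), a call lost without 72 h replicate 2 (0.38, edgeR adjusted p = 0.0663).

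The single drugs moved fewer of these genes. With GSK343, 2 of 15 further family genes rose and 2 fell (9.12% and 3.31% of all genes). BOK rose by 2.13 ± 0.31 (edgeR adjusted p = 0.000325), BNIP3, a mitophagy receptor, fell by 1.03 ± 0.15 (0.000373), and HRK rose by 2.53 ± 0.54 (0.00608), a call lost without DMSO replicate 2 (2.10, 0.067). TP73, the p53 relative that can drive BBC3, rose by 1.45 ± 0.26 with GSK343 (edgeR adjusted p = 0.00174), and 2 of the 17 factors rose in all. With X5050, 1 of the 15 rose and 1 fell, and of the 17 factors 1 rose (NFKB1) and 1 fell, shares near the 5.34% and 7.23% of all genes.

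The pattern over the 12 drug libraries was compared with that of 9864 protein-coding genes by Pearson correlation of log2(CPM + 0.5), for the 5 of the 10 genes whose mean reached 5 CPM and whose standard deviation reached 0.5 on that scale. The 12 libraries share controls and processing, and the correlations are descriptions. Closest to MCL1 were VGF (r = 0.983), CAMSAP2 (0.980) and STRIP2 (0.979). Closest to BMF were KIAA0513 (r = 0.970), NDST1 (0.953) and ASAH1 (0.951), and closest to BBC3 were CD276 (0.978), SMARCA1 (0.971) and UBALD1 (0.964). BCL2L11 was most like RXRA (r = 0.954), MFSD11 (0.945) and TOM1L2 (0.944). The highest for BCL2 were CEMIP2 (r = 0.888), ZNF641 (0.887) and TMEM154 (0.885).

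In the excision experiment 9 of the 10 genes were tested, BIK being too low. The single edgeR call without a term for the replicate number was BMF in DKO, and it depended on each EV and each DKO library. Within the EV control, TPM, a level scaled to transcript length and library size, gave MCL1 59.5 ± 23.3 (SD, n = 2) and BCL2L1 45.2 ± 0.783, which differed by less than the spread of MCL1. Next came BAX with 20.2 ± 11.4, BBC3 with 10.9 ± 6.92, PMAIP1 with 10.4 ± 4.54 and BAK1 with 8.92 ± 2.47, whose order is within the spread of the libraries. BCL2L11 had 4.78 ± 1.05, BCL2 0.474 ± 0.262, BMF 0.215 ± 0.146 and BIK 0.0290 ± 0.0410 TPM. BCL2 and BMF did not differ beyond their spread.

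BMF had 0.278 and 0.502 CPM in EV (22 and 42 counts), 1.76 and 4.44 CPM in S1KO, 1.43 and 4.30 CPM in S2KO, and 3.83 and 3.89 CPM in DKO. Every excised library lay above both EV libraries. In DKO the rise was 3.30 ± 0.71, or 9.86-fold (edgeR adjusted p = 0.0359), the single call among the 9 genes (5.41% of 21285 genes rose and 3.35% fell). That call was lost without either DKO or either EV library (2.92 to 3.78, edgeR adjusted p 0.108 to 0.153), and with counts scaled by length from TPM (2.48, 0.0913), so DKO then called 0 of the 9. In S1KO the estimate was 2.98 ± 0.70 (edgeR adjusted p = 0.0788) and in S2KO 2.87 ± 0.70 (0.12). The S1KO estimate passed without either S2KO library (2.96 in both fits, edgeR adjusted p 0.0421 and 0.043), and the call count was then 1. The summed erythroid markers were 6251 and 2704 CPM in EV, 5879.5 to 16566 CPM in S1KO and S2KO, and 16890 and 19759 CPM in DKO, and the summed epithelial and fibroblast markers were 85.3 and 62.7 CPM in EV and 222 and 199 CPM in DKO. Of the latter list COL1A1 and COL1A2, which encode collagen chains, rose in DKO by 2.61 ± 0.38 and 8.20 ± 0.33 (edgeR adjusted p = 0.00944 and 0.000161). The DKO libraries also held fewer gene counts, 55913480 and 59444316, against 81110012 and 87677945 in EV. They did not deviate together with the same-numbered EV libraries (correlation -0.0843). The part of both lists and of these library differences in the BMF result was not tested.

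For the single excisions edgeR, fitted without the replicate number as a term, called 0 of the 9 genes in each. In S1KO 2.44% of all genes rose and 1.23% fell, and in S2KO 1.45% rose and 0.554% fell. BMF alone had an unadjusted p under 0.05 in either comparison, and DESeq2 called 1 gene, BMF, in each. With the replicate number as a block edgeR also called 1 gene, BMF, in each. Same-numbered libraries deviated together in EV, S1KO and S2KO (correlations 0.488 to 0.622). The test of whether both excisions together differed from the sum of the single ones called 0 (0.319% of all genes rose and 0.724% fell), with 2 unadjusted p under 0.05, BCL2 and BMF, and 0 calls by DESeq2. For BMF that difference was -2.55 with an interval of -4.36 to -0.74 (edgeR adjusted p = 0.414), and for BCL2 it was -2.58 with an interval of -4.24 to -0.92 (0.345).

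**Figure D4:**
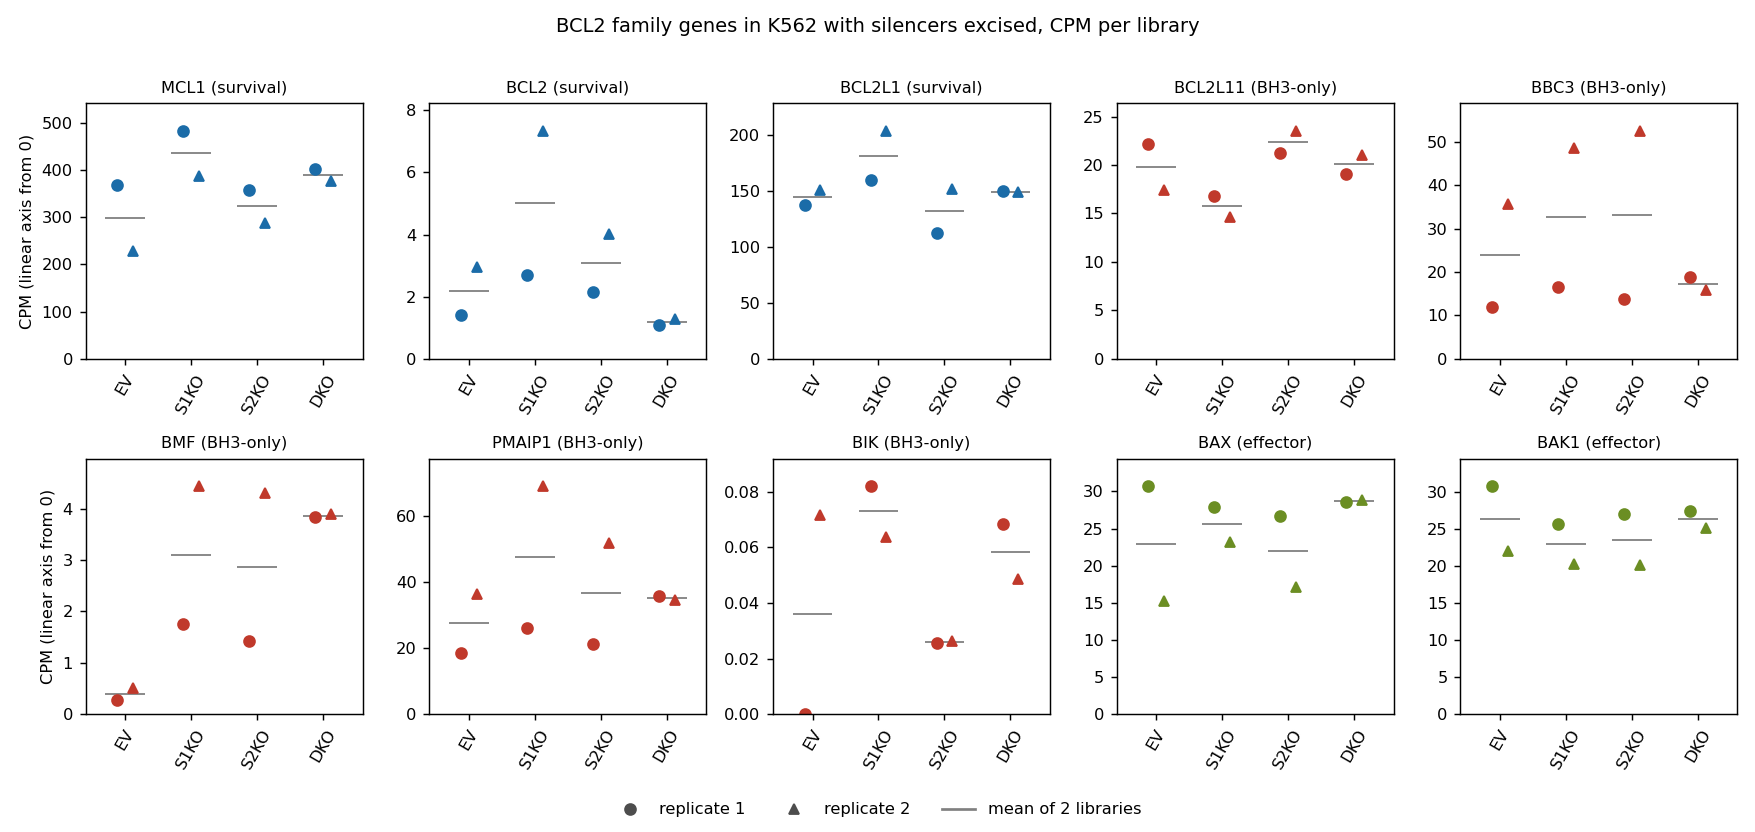
Level of each of the 10 genes in CPM (linear axes from 0) in the 8 excision libraries, with circles and triangles for replicates 1 and 2 and a line at the mean of both. BMF lies at 0.278 and 0.502 CPM in EV and between 1.43 and 4.44 CPM in the 6 excised libraries, and BBC3 and PMAIP1 split by replicate number in EV, S1KO and S2KO.

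MCL1 had 369 and 229 CPM in EV, 483 and 388 CPM in S1KO, 359 and 287 CPM in S2KO, and 402 and 376 CPM in DKO. The S1KO and DKO libraries lay above both EV libraries, and S2KO overlapped EV. The estimates were 0.54 ± 0.26 in S1KO (edgeR adjusted p = 0.397), 0.11 ± 0.26 in S2KO (0.978) and 0.38 ± 0.26 in DKO (0.42). BCL2 had 1.42 and 2.95 CPM in EV, 2.69 and 7.34 CPM in S1KO, 2.16 and 4.02 CPM in S2KO, and 1.08 and 1.29 CPM in DKO, the lowest libraries (DKO -0.88 ± 0.60, edgeR adjusted p = 0.426). BCL2L1 had 137 and 150 CPM in EV, 159 and 203 CPM in S1KO, 112 and 151 CPM in S2KO, and 149 and 149 CPM in DKO.

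The death genes BBC3, PMAIP1 and BMF differed between the 2 libraries of EV, S1KO and S2KO. BBC3 had 12.02 and 35.7 CPM in EV, 16.7 and 48.6 CPM in S1KO, 13.8 and 52.6 CPM in S2KO, and 18.8 and 15.9 CPM in DKO. PMAIP1 had 18.5 and 36.5 CPM in EV, 26.0 and 69.1 CPM in S1KO, 21.3 and 52.0 CPM in S2KO, and 35.9 and 34.5 CPM in DKO. In EV, S1KO and S2KO, replicate 2 exceeded replicate 1 by 2.92 to 3.80 times for BBC3, 1.97 to 2.66 times for PMAIP1, 1.80 to 3.01 times for BMF and 1.86 to 2.72 times for BCL2. For MCL1 replicate 2 was 0.619 to 0.802 times replicate 1. In DKO these 5 ratios lay between 0.845 and 1.20. The labels do not say what a replicate number shares across lines.

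BCL2L11 had 22.2 and 17.4 CPM in EV, 16.9 and 14.6 CPM in S1KO, 21.3 and 23.5 CPM in S2KO, and 19.1 and 21.1 CPM in DKO. Its S1KO libraries lay just below EV (-0.33 with an interval of -0.70 to 0.04, edgeR adjusted p = 0.502). BAX ran from 15.2 to 30.7 CPM over the 8 libraries and BAK1 from 20.2 to 30.9 CPM, both with each excised line overlapping EV. BIK counts ran from 0 to 8 (0 and 6 for EV, 8 and 6 for S1KO, 2 and 2 for S2KO, 4 and 3 for DKO).

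Elsewhere in the pathway, DKO called 1 rise and 1 fall among 16 further family genes, near the shares of all genes (5.41% and 3.35%), BOK by 2.36 ± 0.46 (edgeR adjusted p = 0.0254) and BNIP1 by -0.90 ± 0.20 (0.0412). Of the 17 factors, 2 were called up in S1KO (FOXO1 and TP73) and 1 in S2KO (TP73), where 2.44% and 1.45% of all genes rose. In DKO the same 2 were called: FOXO1 rose by 2.27 ± 0.31 (edgeR adjusted p = 0.00748) and TP73 by 2.49 ± 0.41 (0.0141). Without DKO replicate 1 the edgeR adjusted p was 0.133 for BOK, 0.284 for BNIP1, 0.0675 for FOXO1 and 0.0991 for TP73. Without DKO replicate 2 it was 0.139, 0.211, 0.0524 and 0.0713 in the same order. EV replicate 2 was needed for the calls of BOK (0.0807 without it), BNIP1 (0.167) and TP73 (0.0624), S1KO replicate 1 for those of BOK and BNIP1 (0.051 and 0.0804), S1KO replicate 2 for that of BNIP1 (0.0806), and either S2KO library for that of BNIP1 (0.0533 and 0.055), each by edgeR adjusted p.

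The excision tables also give single transcripts of MCL1 and BCL2L1, whose long and short forms are known to act in opposite ways. MCL1-202 encodes the long survival form of 350 codons, and MCL1-201 a short form of 271 codons known to promote death. MCL1-203 has no coding sequence in the annotation. The long form made up 72.2% to 84.2% of MCL1 TPM in the 8 libraries. The short form had 2.52 and 1.18 TPM in EV, 4.09 and 3.15 TPM in S1KO, 2.95 and 3.07 TPM in S2KO, and 3.76 and 5.26 TPM in DKO.

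As a share of long plus short, short MCL1 was 3.94% and 3.16% for EV, 4.57% and 4.40% for S1KO, 4.77% and 6.38% for S2KO, and 5.19% and 7.35% for DKO. All 6 excised libraries lay above both EV libraries. Tested by limma on log2(TPM + 0.1), MCL1-201 differed in DKO by 1.31 ± 0.39 (limma adjusted p = 0.146) and MCL1-203 by 1.30 ± 0.37 (0.136), and neither passed. Estimated shares of overlapping transcripts carry an assignment error that the files do not give.

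BCL2L1-201 and BCL2L1-203 share a coding length of 233 codons, the long BCL-XL form, and differ outside it. BCL2L1-203 had 20.1 and 23.2 TPM in EV, 33.6 and 47.0 TPM in S1KO, 16.6 and 25.5 TPM in S2KO, and 25.8 and 26.4 TPM in DKO. BCL2L1-201 had 13.0 and 11.8 TPM in EV, 8.61 and 7.60 TPM in S1KO, 9.89 and 10.2 TPM in S2KO, and 13.4 and 14.6 TPM in DKO. In S1KO the first was highest and the second lowest, so the ratio of 203 to 201 was 3.91 and 6.19 there, against 1.55 to 2.49 in the other 6 libraries. In S1KO limma gave 0.88 ± 0.27 for BCL2L1-203 (adjusted p = 0.346) and -0.61 ± 0.18 for BCL2L1-201 (limma adjusted p = 0.316). The short form BCL2L1-202 (170 codons, BCL-XS) was 2.35% to 4.81% of long plus short.

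Of the 10 tested transcripts of both genes limma called 0 in S1KO (0.53% of 39791 transcripts called), 0 in S2KO (0.229%) and 0 in DKO (2.92%). An unadjusted p under 0.05 was found for 5 in S1KO, 0 in S2KO and 2 in DKO. The 5 were MCL1-201, MCL1-202, MCL1-203, BCL2L1-201 and BCL2L1-203, and the 2 were MCL1-201 and MCL1-203. Transcripts of the same gene are not independent results, and the share of all transcripts under this unadjusted threshold is not given here. No other tool was run on transcripts. Without EV replicate 1 limma called 1 of the 10 in DKO.

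**Figure D5:**
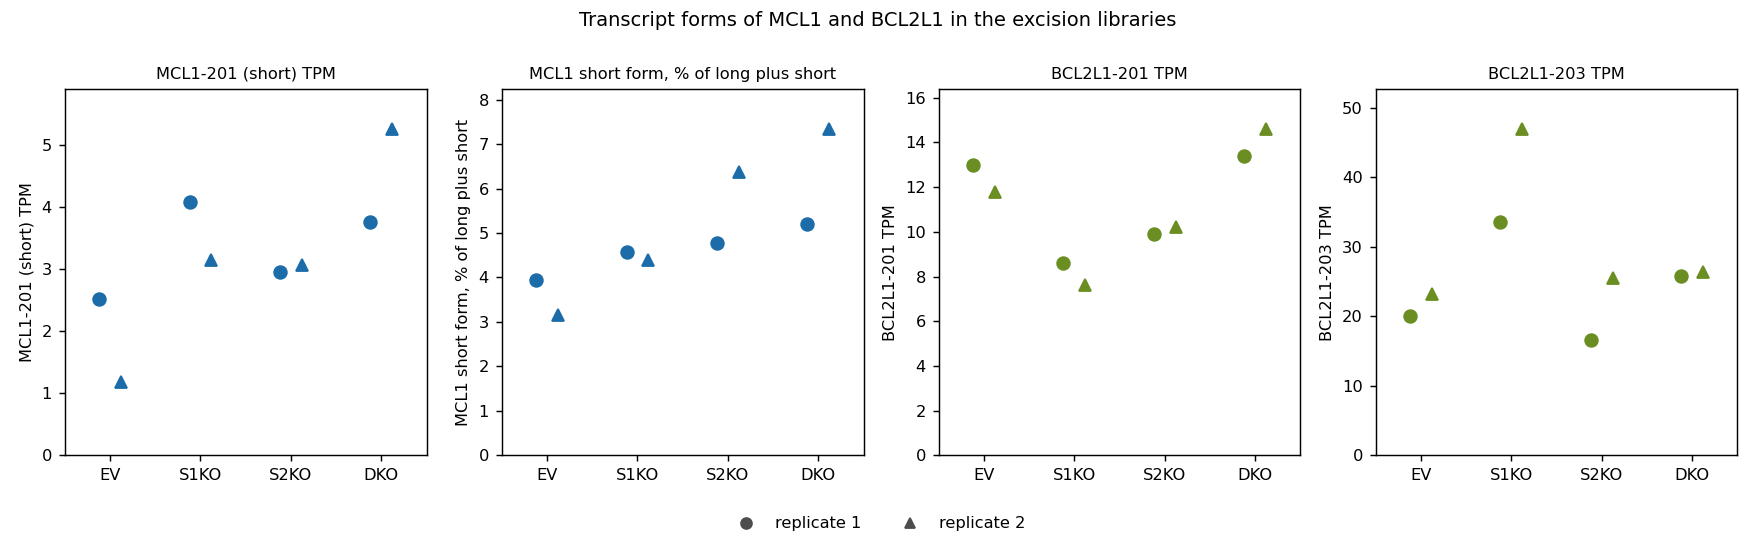
Transcript levels in TPM or percent (linear axes from 0) in the 8 excision libraries, with circles and triangles for replicates 1 and 2: short MCL1-201, its share of long plus short MCL1, and the BCL2L1 transcripts 201 and 203. The short MCL1 share is 3.16% to 3.94% in EV and 4.40% to 7.35% in the excised libraries, and S1KO has the lowest BCL2L1-201 and the highest BCL2L1-203.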

How the data were processed

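Per the labels' protocols, total RNA was sequenced from TruSeq stranded libraries after removal of rRNA. Per the submitters' processing notes the build was hg19 and the tools included kallisto 0.44.0, STAR 2.7.3a and Trimmomatic 0.38, without a role for each, and the annotation release is not given in the sources used here. The authors deposited whole-number read counts per gene for each drug library, in an unstranded and 2 stranded columns, from which the reverse column was taken (8.01 to 9.77 times the forward). For each excision library the authors deposited transcript tables with estimated counts and TPM (transcript level scaled to length and library size), with effective lengths beside them. The estimated counts were added up within each gene, then rounded, and genes were named through GENCODE 29 (182238 of 215170 transcript identifiers, and 52301 of 57736 gene identifiers of the drug tables), which is built on GRCh38 and served for names, coding lengths and GC content only. MARCHF5 was looked up under its older symbol.

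The experiments come from different quantifiers and were fitted apart, each with 1 mean per group over all its groups, by edgeR's robust quasi-likelihood test (edgeR 4.0.16 under R 4.3.3). Low genes were removed by filterByExpr, and library sizes were scaled by TMM (factors 0.873 to 1.09, and 0.955 to 1.05). Benjamini-Hochberg adjustment ran over all 19224 or 21285 tested genes. Replicates varied with a biological coefficient of 0.129 (6 residual degrees of freedom) among drug libraries and 0.323 (4) among excision libraries. The labels call the replicates biological without saying what was separate, so p values measure the spread between these libraries. Standard errors were obtained by dividing the size of the log2 fold change by the root of its F statistic. The 95% intervals were drawn from them with the normal quantile, which makes them too narrow for so few degrees of freedom. CPM values are scaled by the TMM factors. Transcripts with a mean TPM of at least 1 were tested with limma 3.58.1 on log2(TPM + 0.1), which understates changes of low transcripts. Ratios of BIK with few counts have exact 95% counting intervals.

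The named genes are the 10 family genes and at most 4 called genes with the lowest p from each of 5 pathway lists, of which some are not reported here. The genes and lists were chosen with earlier results of these data known. The alternatives were each library left out, removal of the GC trend by a loess of span 0.3, fits of only the groups compared, unstranded counts (drugs), length-scaled TPM counts (excision), the replicate number as a block, scaling by RLE, every gene with at least 1 count, and DESeq2 1.42.0. Fits without the DKO libraries were chosen after seeing the data. Tested on simulated data, the 72 h comparison of both drugs with DMSO, over 19224 genes, called 52 of 100 genes given a 2-fold change, 75 of 100 given a 4-fold change, and 5 left unchanged. The DKO comparison, over 21285 genes, called 0 and 45 of 100, and 0 left unchanged. RefSeq promoters are on GRCh38.p14.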

Additional observations from a re-analysis of the deposited data

Results flagged for a closer look

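For 4 of the 10 genes the change under both drugs at 72 h differed from the sum of the changes under GSK343 and X5050 alone, by edgeR's test of the interaction on the log2 scale. Over all genes this test called 9.75% above the sum and 9.04% below it. BMF stood 2.26 above the sum (± 0.33, edgeR adjusted p = 0.000329), with single changes of 0.22 and -0.05 against 2.43 for both. BBC3 stood 0.58 above the sum (± 0.14, edgeR adjusted p = 0.0103), with 0.53 and 0.05 against 1.17. This BBC3 value was 0.31 (edgeR adjusted p = 0.171) with the GC trend removed. The BBC3 call was also lost without 72 h replicate 2 or either GSK343 library. BCL2 stood at -1.89 relative to the sum (± 0.40, edgeR adjusted p = 0.00417), with 1.58 and 0.32 against 0.00. BCL2L1 stood at -0.95 (± 0.17, edgeR adjusted p = 0.0012), with 0.24 and 0.15 against -0.56.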

How the results depend on the processing

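Of 64 edgeR calls of the 10 genes over all comparisons, 43 held with each library left out, 41 held under all alternatives and 5 changed sign under one, in each case removal of the GC trend: BBC3 at 8 h (0.37), and from 24 h to 72 h BBC3 (-0.39), PMAIP1 (0.11), BAX (-0.069) and BAK1 (-0.17). Another 60 gene and comparison pairs were called under no setting, 34 of them with a sign change under some. With 1 library left out, estimates that changed sign or call ranged from -0.12 to 0.66 for BMF with GSK343, -0.75 to 0.026 for BMF at 8 h, -0.10 to 0.15 for BAX at 8 h, -0.061 to 0.25 for BAK1 at 8 h, and -0.079 (without S1KO replicate 2) to 1.35 (without EV replicate 2) for PMAIP1 in S1KO. Genes called with 1 library left out ranged from 1 to 3 for X5050, 5 to 10 from 24 h to 72 h, 4 to 8 for both drugs against X5050, 0 to 1 for S1KO, 0 to 1 for DKO, and 0 to 1 for the transcripts in DKO. With only the groups compared X5050 called 1 gene, and with length-scaled TPM counts DKO called 0. DESeq2 called 1 gene in S1KO and 1 in S2KO. Same-numbered libraries deviated together in EV, S1KO and S2KO (correlations 0.488 to 0.622) but not with DKO (-0.0843 to -0.0591), and in the drug groups the correlations were -0.0546 to 0.233, so the numbers were not taken as pairs. With a replicate block S1KO called 1 gene and S2KO 1, BMF in both (2.92, edgeR adjusted p = 0.0118, and 2.77, 0.0231), and the block changed no other call of the 10 genes. With a replicate block and no DKO libraries, chosen after seeing the data, S1KO called 4 (MCL1, BCL2, BMF and PMAIP1) and S2KO called 1. No scaling moved the median of all genes by over 0.1. BIK throughout and BMF in EV (22 and 42 counts) rest on few counts, which limits their precision.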
